A study of Homo sapiens with 12 samples.

Results

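The stretch of chromosome 1 around VPS72 (151130000 to 151180000, hg19) was described across 12 ChIP-seq libraries of Huh7, a hepatocellular carcinoma line. A region here is a peak that the authors deposited, and regions were taken where any base lay in this 50-kb window. There were 60 such regions, of 1571479 in all 12 lists. VPS72 lies on the minus strand and its start was taken at position 151163000, so lower coordinates lie downstream of the start, in the direction of transcription. That position is rounded and was not placed by an annotation. Distances in bp, and regions said to span or lie over the start, refer to that position and not to an annotated start. In the gene order of GRCh38.p14, TMOD4 follows VPS72 on the side of lower coordinates, with SCNM1, TNFAIP8L2 and LYSMD1 beyond it, and PIP5K1A and then PSMD4 lie on the upstream side.

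VPS72 encodes YL1, a chaperone for the histone variant H2A.Z and a shared subunit of SRCAP, which exchanges H2A for H2A.Z in nucleosomes, and of the TIP60 acetyltransferase complex. H2A.Z marks the nucleosomes that flank active transcription starts, and its acetylated form (H2A.Zac) is found mainly at active promoters. H3K27ac marks active promoters and enhancers, and H3K4me1 marks enhancers and the flanks of promoters, while the nucleosomes at an active start itself usually carry little H3K4me1.

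All 12 libraries came from Huh7 cells whose own VPS72 gene had been edited to end in a triple FLAG tag followed by a blasticidin resistance gene, grown from colonies that survived selection. The repair template of this knock-in carried sequence from both sides of the VPS72 stop codon. The control cells had been infected with lenti-HA virus, the empty vector. The overexpression cells had received VPS72-FLAG by lentivirus, added for 24 h, so their DNA held VPS72 coding sequence besides the gene itself. FLAG therefore marked the endogenous protein in the control, and that protein together with the lentiviral one under overexpression. The antibodies were against FLAG and 4 chromatin marks, and an input was sequenced beside them, with 1 library per antibody or input in either condition. No difference between conditions has a replicate check, and none was tested.

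Depth, recovered from the deposited values, was 4.38 M reads (control) and 3.07 M reads (overexpression) for FLAG and 17.9 to 25.02 M reads for the histone libraries. The height of a region is the number of reads at its summit divided by the genome average of its own library. The local background is what the peak caller set against that summit, over the same average, and the authors' fold is the summit over the local background with 1 added to both. The authors' q is the p of a region as adjusted by the peak caller, and it can lie far above 0.05 for regions kept at a p of 0.05. The lists were kept at a p of 0.05, so a q of 0.05 or less is given as the stricter limit. Ranges in parentheses after a height or ratio are exact 95% intervals and cover counting error only.

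The window held 7 control and 6 overexpression FLAG regions. There were 6 and 8 regions of H2A.Z, 4 and 7 of H2A.Zac, 4 and 8 of H3K27ac and 2 and 8 of H3K4me1, with the control given first. At a q of 0.05 or less, 3, 4, 4, 4 and 0 of these were left in the control and 0, 1, 5, 5 and 7 under overexpression. Over all 60696 windows of equal length, the mean numbers of deposited regions were 3.03 and 9.09 for FLAG, 3.00 and 0.954 for H2A.Z, 1.34 and 1.22 for H2A.Zac, 1.06 and 1.26 for H3K27ac and 2.05 and 2.56 for H3K4me1, control first. At a q of 0.05 or less the means were 1.13, 0.430, 0.660, 0.451 and 0.331 in the control and 0.762, 0.232, 0.467, 0.393 and 1.41 under overexpression, in the same order of antibodies. The window thus held more H2A.Z, H2A.Zac and H3K27ac regions within this limit than the mean window in both conditions. As many or more were found in 1.21%, 3.61% and 2.30% of windows in the control. Under overexpression it was 16.7%, 0.722% and 0.723%, and the H2A.Z count there is a single region. Control H3K4me1 was at the mean in deposited regions. Under overexpression and within the q limit, H3K4me1 had the highest mean of all marks genome-wide (1.41) as well as the most regions here (7). In deposited regions, overexpression H3K4me1, H2A.Z and H3K27ac had 8 each here. Overexpression FLAG was below its mean. The length under regions was close between conditions for H2A.Zac (6852 bp in the control and 6599 bp under overexpression) and H3K27ac (6604 and 6713 bp). For H2A.Z it was 4132 and 2814 bp, and for H3K4me1 507 and 3024 bp. Neither input list had a region in the window. The nearest input peaks lay 2.15 Mb (control) and 2.81 Mb (overexpression) away, in lists of 810 and 814 peaks.

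**Figure D1:**
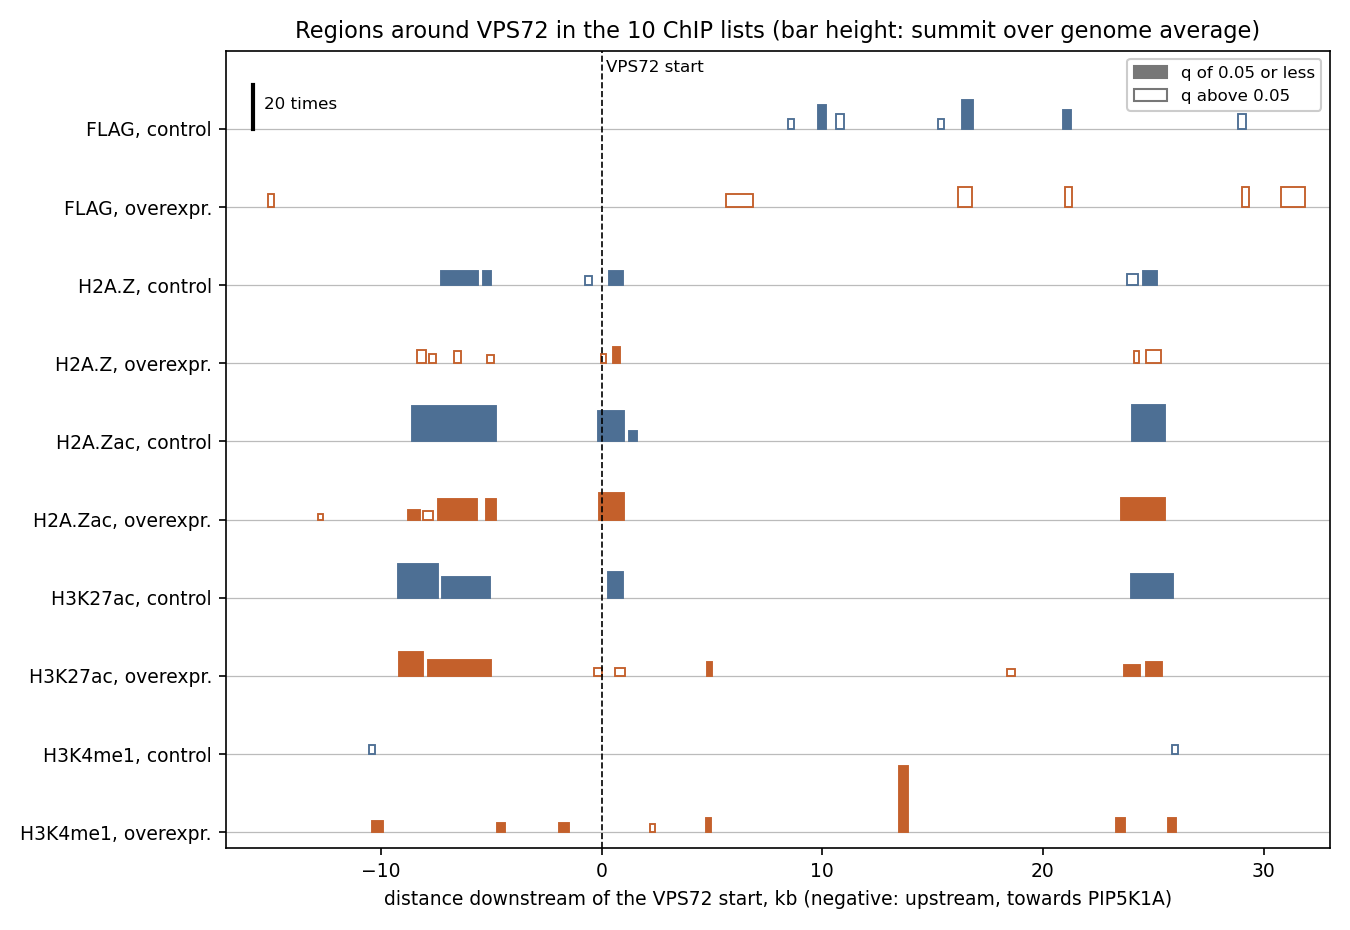
Deposited regions around VPS72 in the 10 ChIP lists, by distance downstream of the start in kb, with bars as wide as the region and as high as its summit over the genome average of its library (scale bar, 20 times). Filled bars have a q of 0.05 or less. H2A.Z, H2A.Zac and H3K27ac stack up at the start, upstream of it and about 25 kb downstream in both conditions, FLAG lies elsewhere, and the highest bar is an H3K4me1 region under overexpression.

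The histone regions of both conditions, joined over gaps of up to 1 kb, fell into 7 places. Deposited regions of H2A.Z, H2A.Zac and H3K27ac were found in both conditions at 3 of them: the start of VPS72, a stretch 4.39 to 10.5 kb upstream of it towards PIP5K1A, and a stretch 23.3 to 26.1 kb downstream. Among these 3 places, at a q of 0.05 or less under overexpression, H2A.Z was left only at the start. H3K27ac was left only in the upstream and downstream stretches. The other 4 places had regions under overexpression only. Of these, 2 rested on a single region with a q above 0.05, H3K27ac at 151144283 to 151144605 and H2A.Zac at 151175615 to 151175858. The remaining 2 lay 13.5 to 13.9 kb and 4.72 to 5.00 kb downstream of the start.

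At the start of VPS72, the control cells carried acetylated H2A.Z and H3K27ac over little background. Control H2A.Zac had a region from 151162001 to 151163169, which spans the start, with 27 reads at its summit, a height of 13.9 (9.17 to 20.2), a fold of 9.10 and a −log10 q of 16.2. Control H3K27ac had a region from 151162017 to 151162697, with 22 reads, a height of 11.8 (7.37 to 17.8), a fold of 7.70 and a −log10 q of 11.9. These are well placed in their own lists without being extreme, since 16.9% of control H2A.Zac regions and 18.8% of control H3K27ac regions were as high or higher. Total H2A.Z was weaker there. Its control region from 151162016 to 151162682 had 9 reads and a height of 6.44 (2.95 to 12.2), with a −log10 q of 2.49, and a further one lay just upstream from 151163436 to 151163734 with 6 reads and a q above 0.05. The summits of the 3 marks lay 478 to 623 bp downstream of the start, on a local background equal to the genome average (1.00). A weaker control H2A.Zac region with 9 reads and a −log10 q of 1.3 followed at 151161407 to 151161754.

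Under overexpression the acetylated H2A.Z summit at the start was about as high as in the control, and H3K27ac had only weak regions. The H2A.Zac region ran from 151161981 to 151163098 and again had 27 reads, a height of 12.1 (7.97 to 17.6), with a fold of 3.26 and a −log10 q of 3.78. The height ratio of overexpression to control was 0.869 (0.490 to 1.54). Across the 29649 control H2A.Zac regions of a q up to 0.05 that had an overexpression partner, the median ratio was 0.652, and 89.4% were at or below the ratio at VPS72. The fold gave another picture, with a ratio of 0.358 against a median of 0.689, and 2.99% of regions at or below it. A fold ratio of 0.5 or less was seen at 16.3% of these regions and a height ratio of 0.5 or less at 13.6%. The local background was 1.00 in the control and 3.32 under overexpression, which is what sets the fold apart from the height here.

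H2A.Z at the start had 12 reads under overexpression in a region from 151162172 to 151162483, a height of 7.31 (3.78 to 12.8) with a −log10 q of 2.51. It was the only H2A.Z region of that list in the window with a q of 0.05 or less. The height ratio was 1.14 (0.439 to 3.05), an interval that holds the genome-wide median of 0.851. A further region from 151162793 to 151163009, over the start, had 7 reads and a q above 0.05.

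H3K27ac at the start went from 22 reads at the control summit to regions of 8 reads each under overexpression. They ran from 151161938 to 151162372 and from 151162980 to 151163329, each with a height of 3.73 (1.61 to 7.35), folds of 1.95 and 2.45 and a q above 0.05. The height ratio was 0.317 (0.122 to 0.740) against a median of 0.748 over 23123 regions. Of these, 5.07% had a ratio of 0.5 or less, 0.0649% were at or below the one at VPS72, and so were 0.162% of the 4924 regions of like control height. All control H3K27ac regions of the window overlapped some overexpression region (15.5% did not genome-wide), but the one at the start overlapped none with a q of 0.05 or less. That was also so for 28.1% of all control regions within that limit, and for 3.92% of the 2244 with a −log10 q of 10 to 14.

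The stretch between these overexpression H3K27ac regions is not covered by either, and the control summit lies in it. The first region ended 1 bp after its own summit and 78 bp before the position of the control H3K27ac summit. The overexpression H2A.Zac summit, where the local background equalled 6.0 reads, lay 125 bp past that end. If the H3K27ac library had the same background there, the peak caller would need 12 of its reads, a height of 5.60. Up to 11 reads could then stand uncalled at that position of the 607-bp stretch. Nearer its ends the local background was lower, and fewer reads would be called there. It was 3.0 and 2.19 reads at the overexpression H3K27ac summits and 2.17 reads at the H2A.Z summit at 151162962. With 11 reads the height would be 5.13 and the ratio to the control 0.435, with 1.28% of regions at or below it. The H3K27ac reads at the control summit were therefore not measured under overexpression, and the part of the local background in this difference was not tested.

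**Figure D2:**
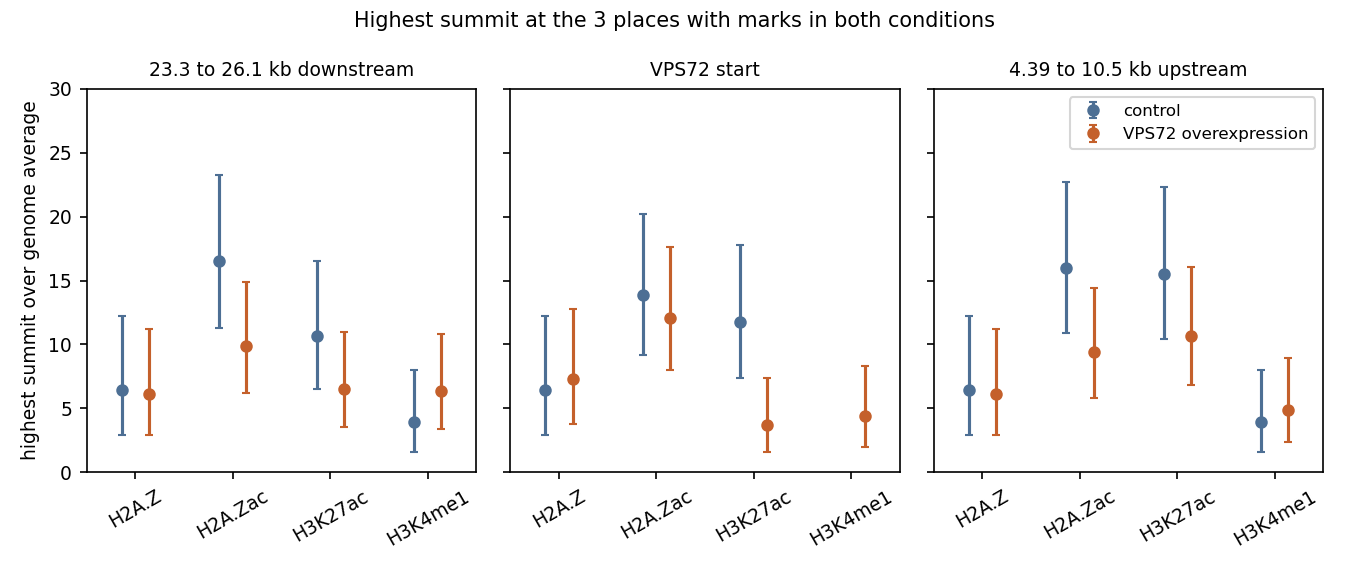
Height of the highest summit (reads over the genome average, linear axis) for each histone mark at the 3 places found in both conditions, with exact 95% counting intervals and 1 library per point. At the start, H2A.Zac stands at 13.9 and 12.1 while H3K27ac stands at 11.8 and 3.73. The value of 3.73 comes from called regions beside the control summit, where H3K27ac was not measured under overexpression. The H3K4me1 point in the middle panel comes from the flanks of the start. In the upstream panel the paired points can lie at different positions. The H2A.Z summits there are at 151168311 (control) and 151171167 (overexpression), and the latter region has no control partner. Overlapping H2A.Z regions there had height ratios of 0.568 and 0.851.

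On either side of the start, H3K27ac passed the q limit of 0.05 in both conditions, and its height ratios lay nearer to the median than at the start. The H2A.Zac height ratios, taken at control regions, were lower there than at the start. The fold ratios of the same regions were higher there, at 0.585 downstream and 0.690 upstream against 0.358 at the start. In the downstream stretch (151136885 to 151139693), control H2A.Zac had 32 reads at its summit (151137459 to 151138978, height 16.5, −log10 q 20.7), the strongest H2A.Zac region of the window. Control H3K27ac had 20 reads (151137094 to 151138999, height 10.7, −log10 q 9.84) and control H2A.Z 9 reads (151137820 to 151138475, height 6.44, −log10 q 1.65). Under overexpression the H2A.Zac region (151137462 to 151139481) had 22 reads and a height of 9.85, with a −log10 q of 8.20. H3K27ac was split into 151137585 to 151138344 (14 reads, 6.53, −log10 q 3.35) and 151138621 to 151139341 (11 reads, 5.13, −log10 q 1.93). The overexpression H2A.Z partner had 10 reads and a q above 0.05. The height ratios were 0.597 (0.331 to 1.06) for H2A.Zac, 0.611 (0.285 to 1.27) for H3K27ac and 0.946 (0.345 to 2.63) for H2A.Z, and each interval held the genome-wide median of its mark.

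In the upstream stretch (151167393 to 151173529), the control held the highest H3K27ac summit of the window. That region (151170391 to 151172230) had 29 reads, a height of 15.5 and a −log10 q of 16.6, and a neighbouring one (151168068 to 151170244) had 18 reads and a −log10 q of 7.87. Control H2A.Zac formed a single region of 3815 bp (151167780 to 151171594) with 31 reads, a height of 16.0 and a −log10 q of 17.8. Control H2A.Z had regions at 151168002 to 151168362 and 151168611 to 151170281, both with 9 reads and a −log10 q of 2.49. The overexpression H3K27ac regions (151171113 to 151172166 and 151168022 to 151170848) had 23 and 16 reads and −log10 q values of 9.59 and 5.36. The single control H2A.Zac region faced 4 under overexpression, of which 151167768 to 151168241 and 151168656 to 151170432 had 21 reads and a −log10 q of 7.94 each, and 151171216 to 151171758 had 10 reads and a −log10 q of 1.36. The overexpression partners of these control H2A.Z regions had 6 and 9 reads, both with a q above 0.05. The height ratios were 0.589 (0.321 to 1.06) for H2A.Zac, 0.692 (0.382 to 1.24) and 0.776 (0.370 to 1.61) for H3K27ac, and 0.568 (0.166 to 1.79) and 0.851 (0.299 to 2.42) for H2A.Z. Each interval held the median of its mark. Among the 11 ratios of these 3 marks taken at control regions, only the H3K27ac ratio at the start had a counting interval without that median, narrowly (0.740 against 0.748). That interval leaves out the uncalled stretch at the control summit. There 11 reads, uncalled only if the background were as high as at the H2A.Zac summit, would give a ratio of 0.435. Taken at overexpression regions instead, the H2A.Zac region at 151171216 had a ratio of 0.280 (0.123 to 0.587) to the summit of the long control region, with 0.862% of regions at or below it and a median of 0.652. The control summit lay about 2 kb away from it, at 151169265, so this ratio compares different positions. H3K27ac ratios taken that way were 0.611 and 0.480 in the downstream stretch and 0.482 and 0.692 in the upstream one, with a median of 0.757. Those of 0.480 (0.208 to 1.05) and 0.482 (0.244 to 0.916) also compare different positions, and both intervals held that median.

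Most control regions of these marks were found again. All 4 control H2A.Z regions within the q limit of 0.05 overlapped an overexpression region, where 39.5% of such regions did not genome-wide. For H2A.Zac it was 3 of 4, where 26.0% did not, and the one without a partner was the weak region at 151161407. No H2A.Z height ratio in the window was 0.5 or less (2.29% genome-wide). Of the 5 overexpression H3K27ac regions with a q of 0.05 or less, 1 had no control region (9.51% genome-wide), the region at 151158001 described with the local background.

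**Figure D3:**
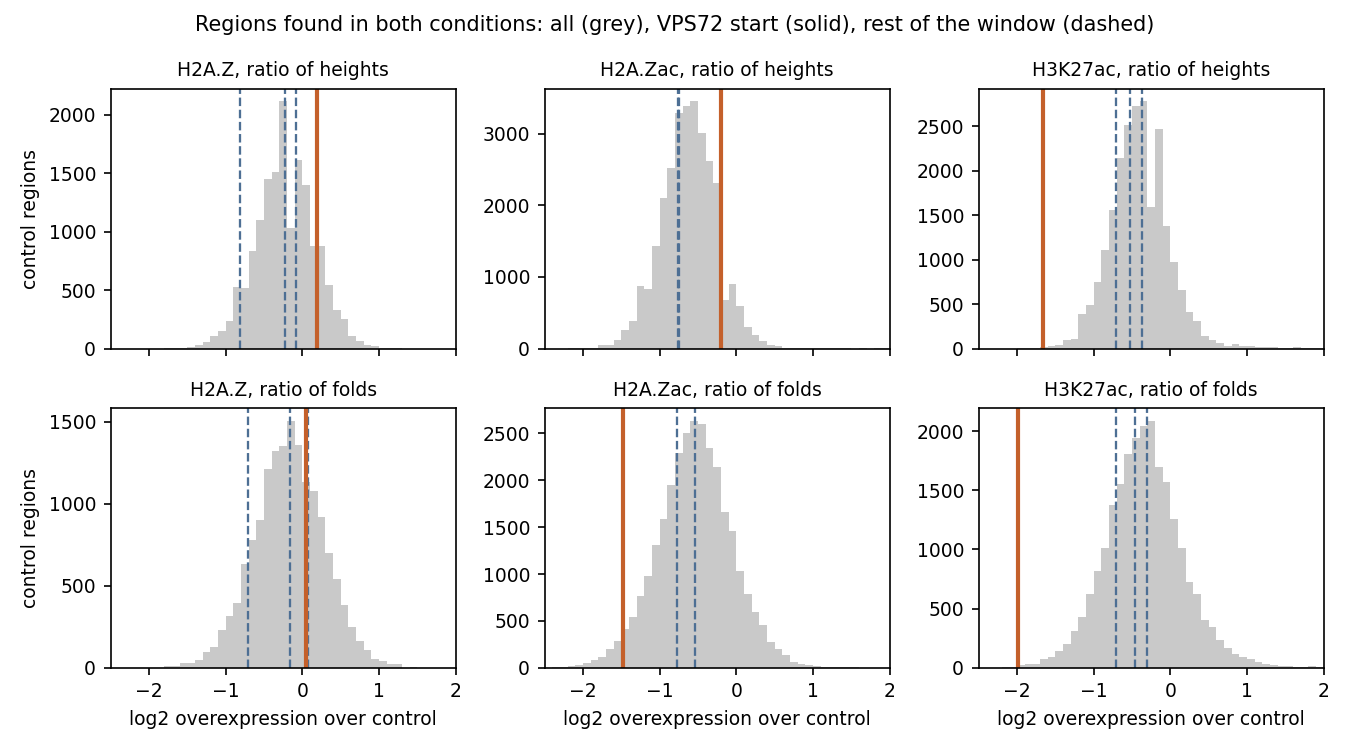
Overexpression over control for summit heights (top) and deposited folds (bottom) of control regions found in both conditions, on a log2 axis, as histograms of all such regions (grey) with the regions at the start of VPS72 (solid lines) and in the rest of the window (dashed lines). For H3K27ac the start lies at the low edge of both histograms, though reads at the control summit were not measured under overexpression. For H2A.Zac the start lies on the high side by height (ratio 0.869) and on the low side by fold (0.358).

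H3K4me1 had 2 weak regions around VPS72 in the control, about the mean of all windows, and 8 under overexpression, where the mean was 2.56. The control regions were 151136885 to 151137139 and 151173278 to 151173529, at the outer edges of the downstream and upstream stretches, with 7 reads each and a q above 0.05. Under overexpression, regions with 13 and 10 reads overlapped them (151136952 to 151137344, −log10 q 2.39, and 151172920 to 151173418, −log10 q 2.04), with height ratios of 1.62 (0.601 to 4.80) and 1.25 (0.428 to 3.86) against a median of 1.2. Of the 7 overexpression regions with a q of 0.05 or less, 5 had no control region, where 44.8% did not genome-wide. They included 151139267 to 151139693 with 13 reads and a −log10 q of 4.02, at the end of the downstream stretch that is nearer to VPS72. Neither condition had an H3K4me1 region within 1 kb of the start. The flanks of the start held regions of 8 reads 2.32 kb downstream and 9 reads 1.66 kb upstream (151164466 to 151164908, −log10 q 1.58) under overexpression, and the region next to the control start was 10.3 kb away.

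The highest region of the whole window was an overexpression H3K4me1 region 13.7 kb downstream of the start, from 151149131 to 151149511. It had 62 reads at its summit, a height of 30.2 (23.1 to 38.7) with a −log10 q of 8.49, and only 0.0282% of that list was as high or higher. Its fold was 2.93, because the local background there was 9.94 times the genome average, or 19.0 reads, which 0.0257% of the list matched or exceeded. No control library had a histone region at this place, and no other overexpression library did. The summit thus stood out far less against the local background set by the peak caller than against the genome average. If the other libraries had the same background of 19.0 reads there, 27 reads of H2A.Z, 33 of H2A.Zac or 31 of H3K27ac would have been needed for a call. Their own background at this place was not measured, so how high a summit of those marks could go uncalled is not known.

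The 4 highest local backgrounds among the overexpression histone regions all lay downstream of the start. Besides the one just given, it was 3.32 at the H2A.Zac summit 503 bp downstream of the start. At 4.78 kb downstream, H3K27ac (151158001 to 151158243, 14 reads, height 6.53, −log10 q 1.31) and H3K4me1 (151158020 to 151158276, 13 reads, height 6.33, −log10 q 1.58) had overexpression regions on backgrounds of 1.87 and 2.00, with no control region. In the control, the local background of the 16 histone regions of the window ran from 1.00 to 1.36. The other overexpression histone regions had backgrounds of 1.00 to 1.84, and the highest of these was an H2A.Z region 8.17 kb upstream of the start. A background of 3 or more is uncommon in these lists, at 1.98% of the overexpression H2A.Zac regions with a q of 0.05 or less (1 of 5 in the window) and at 1.32% of those of H3K4me1 (1 of 7). FLAG regions had backgrounds of 1.18 to 2.08 in the control and 1.00 to 2.27 under overexpression.

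The local background is known only where a region was called, so its course between these points was not measured. Reads from the lentiviral VPS72 coding sequence would align to the exons of VPS72, in the ChIP libraries and in the library used as background alike. The exons were not placed here, as no annotation of hg19 was used, and the part of the lentiviral sequence in the summits and in the background was not tested.

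**Figure D4:**
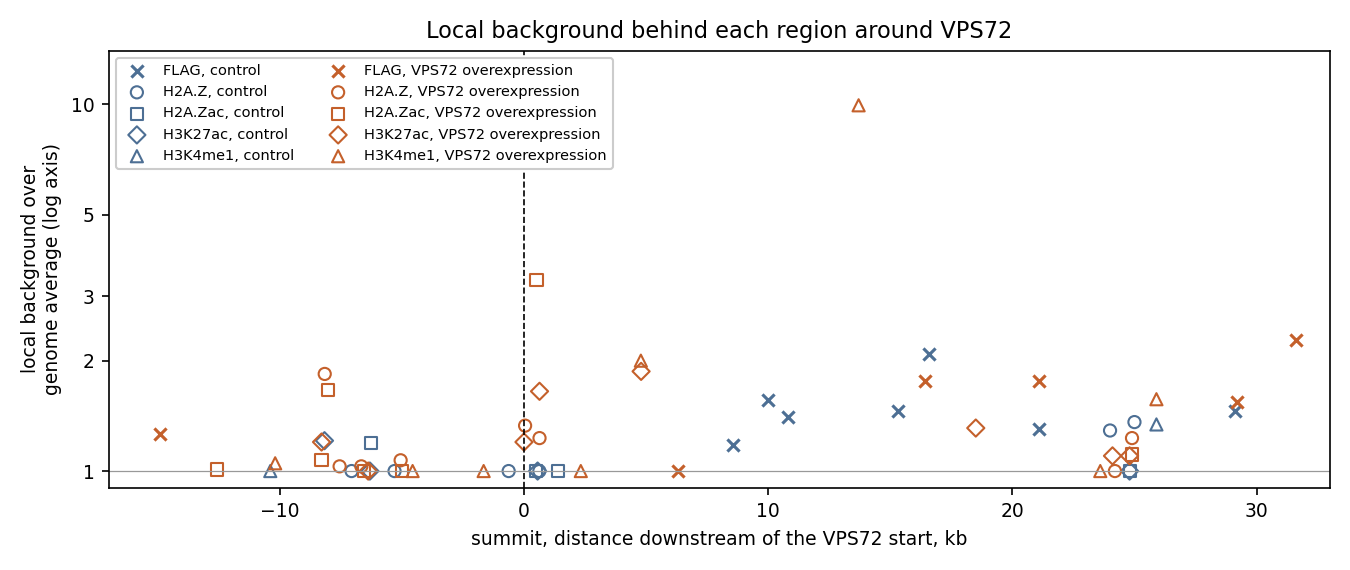
Local background behind each of the 60 regions over the genome average of its library (log axis), by distance of the summit downstream of the VPS72 start in kb. Control histone regions lie between 1.00 and 1.36, while overexpression regions reach 3.32 near the start, 2.00 at 4.78 kb and 9.94 at 13.7 kb downstream.

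FLAG, the tag on VPS72 itself, had no called region at the start of its own gene. The FLAG libraries were shallow (4.38 M reads in the control and 3.07 M under overexpression). How many FLAG reads could stand at the start uncalled was not measured. The nearest FLAG regions lay 8.46 kb (control) and 5.64 kb (overexpression) downstream. In the control, the regions with a q of 0.05 or less were 151146156 to 151146687 with 6 reads, 151152842 to 151153203 with 5 reads and 151141739 to 151142095 with 4 reads, at heights of 13.2 (4.83 to 28.6), 11.0 (3.56 to 25.6) and 8.77 (2.39 to 22.5). They lay 16.6, 9.98 and 21.1 kb downstream of the start, none of them on a histone region. The remaining 4 control regions had 2 or 3 reads at their summits. All 6 overexpression FLAG regions had 2 or 3 reads and a q above 0.05, with heights of 6.07 or 9.11. Such heights are common in that list, where 46.3% of regions reached 6.07 and 28.0% reached 9.11.

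Of the 7 control FLAG regions 4 had no overexpression region, where 55.7% did not genome-wide, and of the 6 overexpression regions 3 had no control region, where 84.5% did not. The ones found in both lay 29.1, 21.1 and 16.6 kb downstream of the start in the control. Their overexpression partners had 3 reads each, against 3, 4 and 6 in the control, so the heights cannot be told apart within counting error. None of the 4 control H2A.Zac regions (q of 0.05 or less) carried a FLAG region, where 27.6% did genome-wide, and none of the 3 that also had H2A.Z and H3K27ac did, where 43.8% did. Under overexpression it was none of 5, where 29.7% did. Whether these counts, of so few regions, differ from the genome-wide shares was not tested. FLAG at the VPS72 start was not called in either library, and cells without a FLAG tag were not analysed here.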

How the data were processed

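ChIP-seq peak lists of 12 libraries were used, 1 per group, with groups from the sample titles. The genotype labels of the overexpression libraries run on from VPS72 to other VPS names, and the titles were followed. Reads were processed with FastQC, Trimmomatic, BWA and MACS2, per the submitters' processing notes, without versions. The notes name hg19 and hg38. The deposited lists hold peaks on the hs37d5 decoy, and coordinates are hg19, 1-based. Each deposited peak has a fold (a ratio of summit to local background), a −log10 p and −log10 q at the summit, an integer score that follows from the −log10 p, and a summit offset (another unit, a position). The lowest deposited −log10 p was 1.3 to 1.31. The second deposited list of each library repeats the summits.

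The deposited fold and −log10 p were solved for the number of reads at the summit, with the Poisson model of MACS2, with a pseudocount of 1 and a tolerance of 0.002. This gave whole reads in 99.905% or more of the peaks per ChIP list and for all 60 regions of the window, 59 of them with a single solution. Depths assume a genome of 2.7 Gb. Libraries that the peak caller had scaled down came to 18.8 M (control) and 20.2 M (overexpression) reads, the depth of the library that served as background, whose name is not given in the sources used here. Recovery was tested on simulated data. Regions overlapping by at least 1 bp count as found in both, and genome-wide shares are over chromosomes 1 to 22 and X. Regions named are those within 1 kb of the start and up to 6 per library with a q of 0.05 or less, besides single regions chosen after their values were seen. The window, limits and lists were chosen with earlier results of these data known. Gene positions of hg19 were not used here, so regions at starts of neighbouring genes and at genes of the SRCAP and TIP60 complexes were not analysed here. Scripts ran under Python 3.11.15 with scipy 1.17.1, numpy 2.4.6, matplotlib 3.10.9 and pandas 2.3.3.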

Additional observations from a re-analysis of the deposited data

How the results depend on the processing

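No library could be left out and no paired analysis was possible because each group had 1 library. With a q of 1e-05 or less, the numbers of regions were 0 for FLAG and H2A.Z in both conditions and for control H3K4me1, and 3, 2 and 1 for overexpression H2A.Zac, H3K27ac and H3K4me1. At a q of 0.05 or less the control had 3 FLAG (1251 bp) and 0 H3K4me1 regions (0 bp), and overexpression had 0 FLAG (0 bp), 1 H2A.Z (312 bp) and 5 H3K27ac regions. Widening the window by 10 kb on each side gave 11 control FLAG and 7 control H3K4me1 regions. If only partners with a q of 0.05 or less counted, 0 control FLAG, 1 control H2A.Z and 0 overexpression H3K4me1 regions were found in the other condition. Within 2 kb of the start there were 2 control H2A.Zac regions and 1 overexpression H3K4me1 region. The H2A.Zac ratio at the start was 0.358 by fold and 0.395 by local background over the median of all regions. Joining only regions that overlap or touch gave 13 places, a choice made after seeing the data. The other alternatives stayed within 1.5 times of the counts or within the counting intervals of the ratios, but ratios near 1 could change side: by fold, H2A.Z at 151137971 went from 0.946 to 1.05 and FLAG at 151141925 from 1.04 to 0.806. By local background over the median, H2A.Z at 151137971 was 1.24, and H2A.Zac at 151169265 and H3K27ac at 151169315 were 1.06 and 1.03. Such values are divided by the genome-wide median, so 1 stands for the median and not for equality with the control. Height ratios divided by the median were 1.11, 0.903 and 1.04 for these 3 regions and 1.33 for H2A.Zac at the start. Heights rest on 2 to 62 reads, and no common scale between libraries was available.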
